A study of Homo sapiens with 9 samples.

Results

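The mitochondrial ribosomal protein genes are the nuclear genes for the protein subunits of the mitochondrial ribosome. They were taken as every row of the count table whose symbol begins with MRPL or MRPS and a digit, leaving out pseudogene symbols. This gave 78 of the 19969 genes in the table, 49 with MRPL and 29 with MRPS symbols. All libraries came from HEK293T, a human embryonic kidney cell line, after removal of ribosomal RNA. Of the 9 libraries, 6 carry the label FHY1-M3 with a guide RNA (sgRNA), 2 each of ACTB sgRNA, con sgRNA and non-target sgRNA, and 3 are called input, with no construct or guide named. The series is about light-controlled editing of the RNA modification m6A. The labels do not say what M3 stands for or which light the cells received. The labels' protocol speaks of input, supernatant and immunoprecipitated (IP) RNA without saying which of these an FHY1-M3 library is. The con columns of the count table are named con_ACTB_sgRNA, and the labels leave unclear if an ACTB guide was in those cells.

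The mitochondrial ribosome translates the few mRNAs made from the mitochondrial genome, all of which code for subunits of the respiratory chain and ATP synthase. Its ribosomal RNAs come from the mitochondrial genome, whereas all of its proteins are made in the cytosol from nuclear genes and are imported. Some of these proteins descend from those of the bacterial ribosome and others were added during the evolution of mitochondria. A symbol does not always give the subunit: MRPS30 and MRPS18A belong to the large subunit, and MRPS36, now named KGD4, is a subunit of the alpha-ketoglutarate dehydrogenase complex. With these exceptions 51 genes were counted to the large subunit and 26 to the small one, 46 of them homologues of bacterial proteins and 31 mitochondria-specific.

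Promoters came from RefSeq (GRCh38.p14), in windows of 250 bases before to 50 after a transcription start, and 70 of the 78 genes had at least 1 window. They were searched on both strands for CCGGAAG, bound by ETS factors such as GABP, for AAGATGGCG, bound by YY1, and for the palindromic motif bound by NRF1, whose letters are the capitals in the MRPL17 window printed here. The ETS letters were found for 30 of the 70 genes (42.9%), against 21.4% of the 10571 genes with a window that were tested against input and 12.2% of all 27305 genes with a window. The YY1 letters were found for 13 of the 70 (18.6%), against 4.45% and 2.14% in the same sets. The NRF1 letters were found for 1 (1.43%), against 2.54% and 1.52%. A match is a description of the letters and no sign of binding. The 4 windows here belong to genes described below, chosen after their values were seen because between them they show each kind of match. Of these 4, MRPL17 and MRPL51 rose and MRPL42 and MRPS22 fell. The choice does not sort letters by direction: the ETS letters occurred in 4 tested members that rose and 3 that fell. MRPL1, MRPL55 and MRPS9, which rose, and MRPS27, which fell, had none of the letters searched. Capitals mark the matches, on either strand. MRPL17 (chr11:6683291-6683590, minus strand) has the NRF1 letters, which read the same on both strands, and MRPL51 (chr12:6493213-6493512, minus strand) has a pair of ETS matches. MRPL42 (chr12:93467264-93467563, plus strand) has the YY1 letters just after its start, and MRPS22 (chr3:139343744-139344043, plus strand) has 3 ETS matches.
MRPL17: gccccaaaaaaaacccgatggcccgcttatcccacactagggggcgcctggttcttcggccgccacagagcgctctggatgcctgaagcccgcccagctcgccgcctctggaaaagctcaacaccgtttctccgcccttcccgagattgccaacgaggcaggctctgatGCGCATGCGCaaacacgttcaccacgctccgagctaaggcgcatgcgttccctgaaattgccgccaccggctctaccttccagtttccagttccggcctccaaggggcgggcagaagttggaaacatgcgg
MRPL51: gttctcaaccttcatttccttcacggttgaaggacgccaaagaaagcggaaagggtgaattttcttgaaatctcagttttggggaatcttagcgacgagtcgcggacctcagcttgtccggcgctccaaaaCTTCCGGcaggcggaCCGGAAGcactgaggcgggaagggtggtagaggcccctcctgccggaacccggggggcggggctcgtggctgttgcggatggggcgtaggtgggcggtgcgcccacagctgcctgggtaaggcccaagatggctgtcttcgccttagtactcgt
MRPL42: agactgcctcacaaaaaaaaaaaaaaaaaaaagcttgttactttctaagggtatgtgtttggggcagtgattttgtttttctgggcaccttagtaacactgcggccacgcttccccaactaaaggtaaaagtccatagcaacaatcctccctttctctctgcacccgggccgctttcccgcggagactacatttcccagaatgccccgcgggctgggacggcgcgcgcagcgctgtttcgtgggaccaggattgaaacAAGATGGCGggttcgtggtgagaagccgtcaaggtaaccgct
MRPS22: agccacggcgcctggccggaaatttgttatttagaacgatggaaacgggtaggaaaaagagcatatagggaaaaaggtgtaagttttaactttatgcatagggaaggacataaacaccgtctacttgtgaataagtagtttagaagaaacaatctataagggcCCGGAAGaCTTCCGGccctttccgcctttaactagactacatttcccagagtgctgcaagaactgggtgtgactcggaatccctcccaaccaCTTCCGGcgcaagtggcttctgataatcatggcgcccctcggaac

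Total counts ran from 2900021 to 3802681 in the FHY1-M3 libraries and from 350413 to 643954 in the inputs, a 9.29-fold ratio of the medians. The median member held 159 to 226 counts per FHY1-M3 library and 13.5 to 31 per input, so the inputs set the precision. Most low counts were even (88.5% to 95% of values from 1 to 20), as when both mates of a read pair are counted. Of 8 markers of the line 6 were detected in every library, among them VIM with 736 ± 45.9 against 773 ± 79.2 CPM, which are counts per 1e+06 counts after TMM scaling (SD, n = 6 FHY1-M3 and 3 inputs). LHX1 and INA were at 0 in at least 1 input. Of 9 markers of fibroblasts, blood and liver, COL1A2, PTPRC and CD3E were at 0 in all 9 libraries. COL1A1 was counted in every library, with FHY1-M3 values of 16.8 to 48.9 CPM against 63.6, 13.0 and 10.5 CPM in the inputs. The 9 markers together took 0.00216% to 0.00497% of FHY1-M3 counts and 0.00153% to 0.00685% of input counts. ACTB, named by the guide, stood at 1347 ± 51.7 CPM under the ACTB guide, 1373 ± 2.77 under the con guide and 1330 ± 11.5 under the non-target guide (SD, n = 2 each), and at 1644 ± 136 in the inputs (n = 3).

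The 78 genes together took 0.494% ± 0.0135 of counts in the FHY1-M3 libraries and 0.428% ± 0.0038 in the inputs (SD, n = 6 and 3). The lowest FHY1-M3 library had 0.474% and the highest input 0.432%, so the groups did not overlap. Mitochondrial mRNAs took 0.563% to 0.639% of the FHY1-M3 counts and 7.52% to 7.8% of the input counts. With those mRNAs left out of the totals, the members took 0.477% to 0.511% in the FHY1-M3 libraries and 0.46% to 0.467% in the inputs. The guides were close to each other, at 0.501% ± 0.00999 for ACTB, 0.492% ± 0.0148 for con and 0.489% ± 0.0209 for non-target sgRNA (SD, n = 2 each). In bulk libraries fewer transcripts per cell and a lower recovery of a transcript cannot be told apart.

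The FHY1-M3 libraries were then compared with input gene by gene. Of the 76 members with enough counts to test, 10 were higher in the FHY1-M3 libraries, 5 were lower and 61 did not pass (edgeR quasi-likelihood test, Benjamini-Hochberg adjusted p under 0.05 over 13411 genes). Higher were 13.2% of the members against 11.4% of all genes tested, and lower were 6.58% against 8.6%, so both shares were near the background. Over all genes tested 1524 were higher and 1153 lower, against 1251 and 1343 with median-ratio size factors and 1385 and 1568 in DESeq2, so the balance of the directions hung on the scaling. The median log2 fold change of the members was 0.19, against 0.04 for all genes tested, with a range of -1.61 to 3.57. In 16 members every FHY1-M3 library lay above every input and in 7 every one lay below, and over all genes tested these shares were 14.9% and 8.51%. The number of members called lower was 2 without input replicate 1, 3 without ACTB sgRNA replicate 1, 3 with a replicate block and 9 in DESeq2. In the fits other than DESeq2, 985 of 13257, 920 of 13773 and 941 of 13411 genes were lower, in that order. In DESeq2 10 members were higher, and the background was 10.5% higher and 11.9% lower. In thinning, counts of each sgRNA library were drawn down to the mean total of the inputs. After it 6 of 70 members were higher and 6 lower, against 970 and 1149 of 9861 genes.

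**Figure D1:**
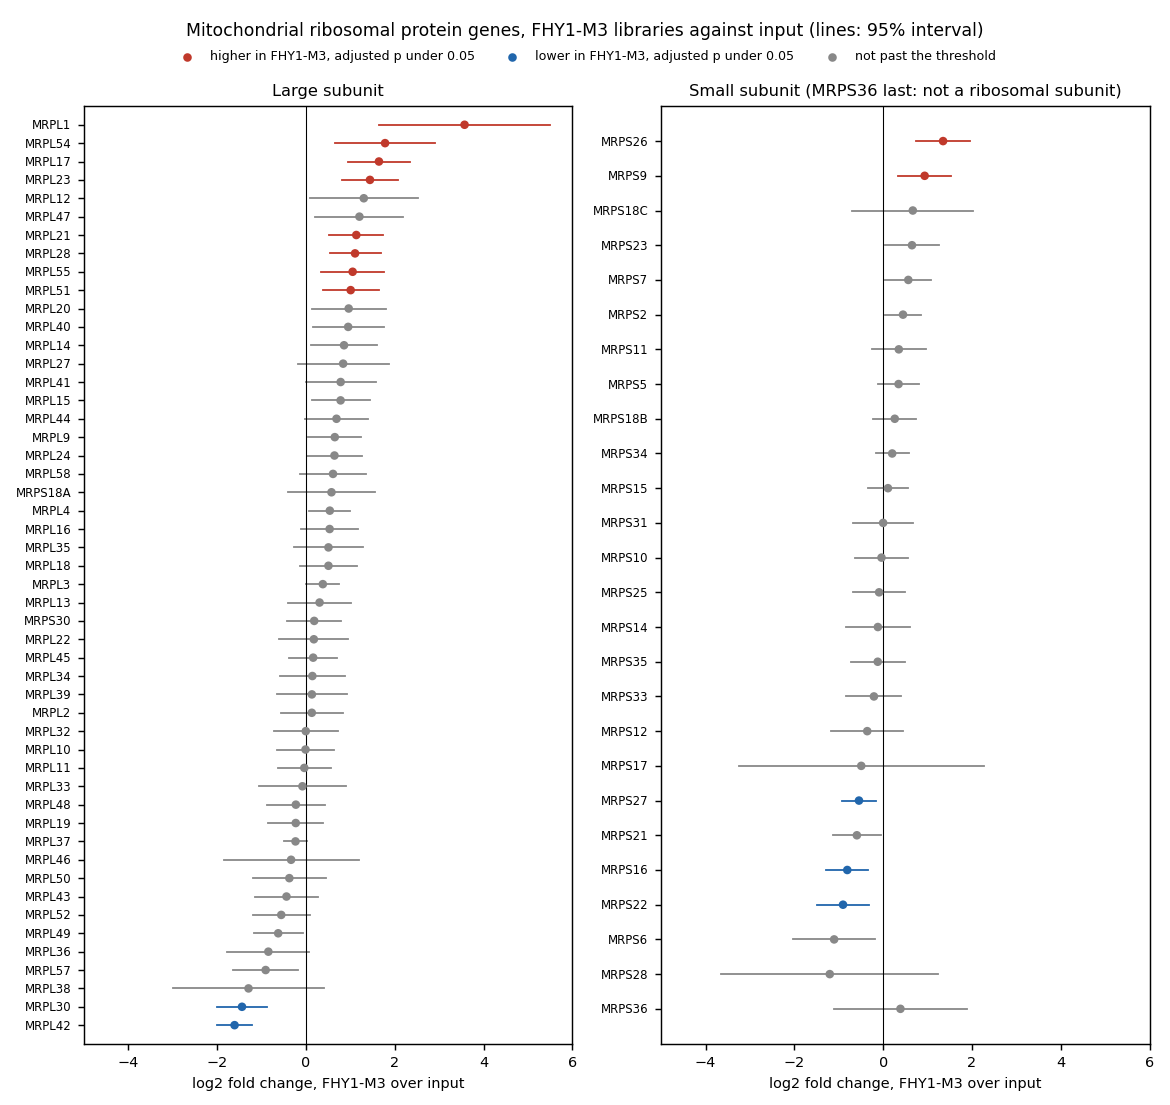
Log2 fold change of the 76 tested members, FHY1-M3 over input, with 95% intervals, for the large subunit (left) and the small subunit with MRPS36 (right). The 10 members past the threshold that were higher are red, the 5 that were lower are blue, and most intervals cross 0.

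Among the large-subunit genes 8 of 50 were higher and 2 lower, with a median log2 fold change of 0.44. Among the small-subunit genes 2 of 25 were higher and 3 lower, with a median of -0.04. Homologues of bacterial proteins had 7 of 45 higher and 2 lower (median 0.38), and mitochondria-specific proteins had 3 of 30 higher and 3 lower (median -0.11). Higher were 16%, 8%, 15.6% and 10% of these subgroups in turn, against 11.4% of all genes tested. Lower were 4%, 12%, 4.44% and 10%, against 8.6%. The subgroups are described by their counts alone, and no difference between them was tested.

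MRPL42 and MRPL30, both of the large subunit, fell the most. MRPL42 is a mitochondria-specific protein (chromosome 12, 93467514 to 93516214, GRCh38.p14). It ran from 58.8 through a median of 75.3 to 91.3 CPM in the FHY1-M3 libraries, against 272, 164 and 246 CPM in the inputs. Every FHY1-M3 library was well below every input, and the fold was 0.328 (log2 -1.61, SE 0.2, adjusted p = 1.0e-07). MRPL30, a homologue of a bacterial large-subunit protein (chromosome 2, 99181184 to 99199561), had 29.9, 37.3 and 52.5 CPM as its lowest, median and highest FHY1-M3 values, against 136, 91.0 and 102 CPM in the inputs. These groups did not overlap either (log2 -1.44, SE 0.28, adjusted p = 0.000229). Against input, MRPL42 was at a log2 of -1.65 with the ACTB, -1.74 with the con and -1.43 with the non-target sgRNA, and MRPL30 at -1.56, -1.40 and -1.36 in that order. The 3 values share the inputs.

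The other 3 members that fell are small-subunit genes. MRPS16, a homologue of a bacterial protein in which mutations cause mitochondrial disease, had 54.7, 75.8 and 85.9 CPM as its lowest, median and highest FHY1-M3 values, against 162, 99.2 and 136 CPM in the inputs (log2 -0.81, SE 0.23, adjusted p = 0.0116). The groups did not overlap, but the call was lost without input replicate 1 (adjusted p = 0.0746). MRPS22, a mitochondria-specific protein also linked to mitochondrial disease, had 43.7, 51.3 and 56.4 CPM, against 142, 50.4 and 99.3 CPM in the inputs (log2 -0.90, SE 0.29, adjusted p = 0.0237). Its input replicate 2 lay inside the FHY1-M3 range. The call was lost without ACTB sgRNA replicate 1 (adjusted p = 0.0574), without input replicate 1 (log2 -0.53, 0.264) or 3 (0.0699), and with a replicate block (0.0669). MRPS27, which carries pentatricopeptide repeats, a fold that binds RNA, had 85.3, 101 and 134 CPM, against 182, 143 and 141 CPM (log2 -0.55, SE 0.19, adjusted p = 0.0409). It was the weakest call: without each library in turn, input replicate 3 excepted, its adjusted p lay between 0.0513 and 0.153, and it was 0.0659 with library-size scaling, 0.0563 with no low-count filter and 0.0513 with a replicate block.

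MRPL1 had the highest fold among the members. It is a homologue of the bacterial protein L1, part of the mobile stalk where spent tRNA leaves the ribosome (chromosome 4, 77862830 to 77952785). Its counts under the ACTB guide were 87 and 94, under the con guide 89 and 80 and under the non-target guide 62 and 18, against 0, 0 and 2 in the inputs. The inputs were close to empty, while only non-target replicate 2 was low among the others. MRPL1 therefore passed the count filter, and the mean of 5 CPM required for naming, only through the FHY1-M3 libraries, where it was high. The ratio of its share of counts was 14.1, with a 95% exact counting interval of 3.87 to 117, or 2.5 to 559 on counts halved to read pairs, and these intervals cover counting error only. The fitted log2 fold change was 3.57 (SE 0.95, adjusted p = 0.00636). The call was lost without input replicate 2 (log2 2.75, adjusted p = 0.053) and after thinning to the input depth (0.0536), and without input replicate 3 no count was left in the inputs.

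MRPL17, MRPL23, MRPS26 and MRPL21 rose and kept the call under all 18 alternatives tried. MRPL17, a homologue of a bacterial large-subunit protein (chromosome 11, 6680385 to 6683340), had 66.6, 70.4 and 93.1 CPM as its lowest, median and highest FHY1-M3 values, against 28.9, 22.8 and 20.9 CPM in the inputs. The fold was 3.12 (log2 1.64, SE 0.34, adjusted p = 0.000531). MRPL23, whose bacterial homologue sits at the exit of the peptide tunnel, had 65.6, 87.0 and 102 CPM, against 23.1, 37.4 and 31.4 CPM (log2 1.44, SE 0.31, adjusted p = 0.000771). Its RefSeq span overlaps that of the noncoding RNA gene H19, which has no row in the count table. The mitochondria-specific small-subunit gene MRPS26 (chromosome 20, 3046052 to 3048250) had 68.8, 116 and 143 CPM, against 23.1, 42.3 and 62.7 CPM (log2 1.35, SE 0.3, adjusted p = 0.00112). MRPL21, of the large subunit, had 72.0, 81.9 and 99.4 CPM, against 28.9, 42.3 and 41.8 CPM (log2 1.13, SE 0.3, adjusted p = 0.00607). In these 4 genes each FHY1-M3 library was above each input.

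The remaining 5 risers each lost the call when a library was left out. MRPL28 had 73.5, 102 and 116 CPM as its lowest, median and highest FHY1-M3 values, against 57.8, 29.3 and 57.5 CPM in the inputs (log2 1.11, adjusted p = 0.00462, or 0.0672 without input replicate 2). MRPL54, a mitochondria-specific protein, had 19.3, 27.9 and 57.3 CPM, against 11.6, 6.5 and 10.5 CPM (log2 1.78, adjusted p = 0.0203). Its adjusted p was 0.0863 without ACTB sgRNA replicate 2, 0.0577 without con sgRNA replicate 2, 0.101 without input replicate 2 and 0.0848 after thinning. The inputs of MRPL54 held 4 counts each, the fewest after MRPL1 among the members that rose.

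The calls of MRPL55, MRPL51 and MRPS9 changed with single libraries as well. MRPL55, a homologue of a bacterial large-subunit protein, had 71.1, 80.9 and 103 CPM, against 52.0, 58.5 and 5.23 CPM (log2 1.05, adjusted p = 0.0277). Only input replicate 3 was far below the rest, and without it the log2 fold change was 0.57 (adjusted p = 0.186). MRPL55 also lost the call without ACTB sgRNA replicate 1 (0.0535) or non-target replicate 1 (0.071), with a replicate block (0.248), among genes averaging 10 CPM or more (0.0533) and after thinning (0.0839). MRPL51, a mitochondria-specific protein, had 73.1, 84.1 and 116 CPM, against 34.7, 68.3 and 20.9 CPM (log2 1.01, adjusted p = 0.0186). Its log2 fold change was 1.67 without input replicate 2, and the call was lost without input replicate 1 (0.0546) or 3 (log2 0.70, 0.125), without non-target replicate 1 (0.0696) and with a replicate block (0.14). MRPS9, whose bacterial homologue touches the tRNA in the P site, had 72.8, 80.4 and 98.4 CPM, against 23.1, 55.3 and 47.1 CPM (log2 0.93, adjusted p = 0.0223). It lost the call without con sgRNA replicate 2 (0.0611), without input replicate 1 (0.101) and after thinning (0.0507). The FHY1-M3 libraries lay above the inputs in all of these genes.

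**Figure D2:**
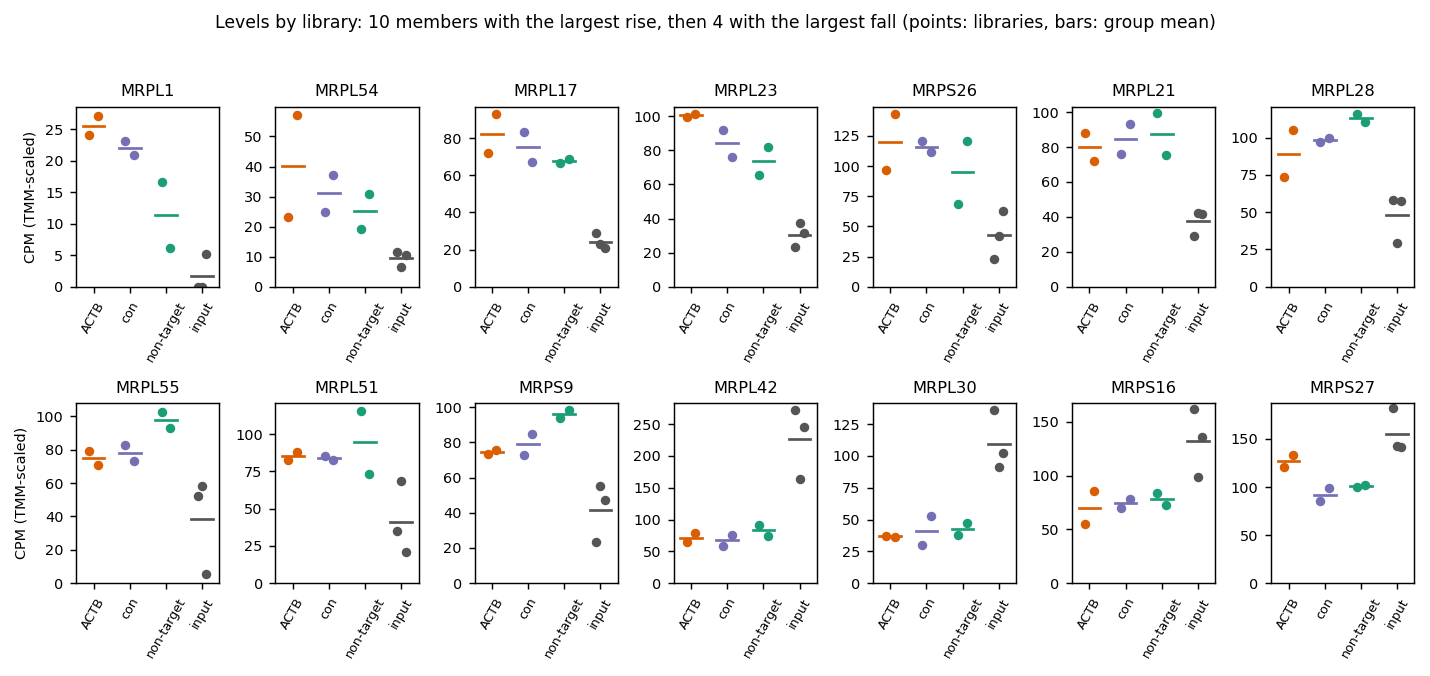
Level of the 14 members that passed the test with no overlap of the 6 FHY1-M3 and the 3 input libraries, in CPM per library, by guide and for input (points are libraries, bars are group means, each panel with its own axis from 0). In the first 10 panels the 6 FHY1-M3 libraries lie above the 3 inputs, and in MRPL42, MRPL30, MRPS16 and MRPS27 they lie below.

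Several other members with a known place in the ribosome did not pass the test. In the stalk that recruits translation factors, MRPL12, which has also been reported to bind the mitochondrial RNA polymerase, had 6.99, 25.2 and 32.5 CPM as its lowest, median and highest FHY1-M3 values, against 11.6, 6.5 and 10.5 CPM in the inputs (log2 1.30, 95% interval 0.08 to 2.52, adjusted p = 0.126). Non-target replicate 1, with 26 counts, was the low library and fell within the inputs. Its partners MRPL10 (log2 -0.01, interval -0.64 to 0.62) and MRPL11 (-0.04, interval -0.63 to 0.56) were near 0, and their signs were not stable. MRPS12, of the decoding centre, differed by -0.36 (interval -1.17 to 0.45). MRPL3, which reaches towards the peptidyl transferase centre, had 151, 186 and 218 CPM, against 150, 133 and 141 CPM (log2 0.38, interval 0.01 to 0.75, adjusted p = 0.147). MRPL3 did not overlap between the groups although it missed the threshold.

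Around the tunnel exit, MRPL45, which anchors the ribosome to the inner membrane, ran from 61.3 to 110 CPM in the FHY1-M3 libraries, against 75.2, 74.8 and 57.5 CPM in the inputs (log2 0.16, interval -0.37 to 0.70). MRPL44, which resembles ribonuclease III, differed by 0.69 (interval -0.03 to 1.40). MRPL32, matured by the m-AAA protease of the inner membrane, was at 0.00 (interval -0.73 to 0.72). MRPL58, a peptidyl-tRNA hydrolase that is built into the large subunit, differed by 0.61 (interval -0.12 to 1.34) and passed only with a replicate block (log2 1.16, adjusted p = 0.0357). None of the 3 homologues of bacterial S18 passed: MRPS18A of the large subunit differed by 0.57 (interval -0.41 to 1.56), MRPS18B by 0.26 (-0.22 to 0.74) and MRPS18C by 0.67 (-0.70 to 2.03). MRPS30 differed by 0.19 (interval -0.42 to 0.79). MRPS36, not a ribosomal protein by current naming, differed by 0.39 (interval -1.11 to 1.89). All of these intervals include 0, and those of MRPL44, MRPL58, MRPS18A, MRPS18C and MRPS36 also include a doubling, which is therefore not excluded for these genes. The intervals of MRPS36 and, above, of MRPS12 include a halving.

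Several members were barely counted. MRPL53 had 2 counts over the 9 libraries and MRPS24 had 25, and these 2 were not tested. MRPS17, MRPS28 and MRPL38 had 70, 72 and 117 counts over the 6 FHY1-M3 libraries and 6, 9 and 17 over the inputs. MRPS24 lies within the read-through gene URGCP-MRPS24, which has its own row of counts, and MRPS28 overlaps the read-through gene TPD52-MRPS28. In RefSeq 32 of the 78 members overlap another gene and 17 overlap one with its own row. None of the 15 members past the threshold is among those 17 (0 of 15). Of these 15, however, MRPL1, MRPL23, MRPL28, MRPL42, MRPS9, MRPS16 and MRPS27 overlap genes without a row of their own. Reads of such genes were not counted separately, and their part in these calls was not tested. Whether the authors' counting used strand is not given in the sources used here, so counts of genes that overlap may include each other's reads.

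Processed pseudogenes are copies of an mRNA elsewhere in the genome, and reads can match both. RefSeq names 106 pseudogenes for 42 of the 78 members, with 6 for MRPL42, 3 for MRPS16 and 2 each for MRPL30 and MRPL51. Among the tested members with a named pseudogene 1 of 40 was higher and 4 were lower (median log2 0.05). Among those without one 9 of 36 were higher and 1 was lower (median 0.52). Over the other genes tested, 15.7% of the 1968 with a named pseudogene were higher and 11.7% lower, against 10.6% and 8.07% of the 11367 without one, and both medians were 0.04. How the authors' counting treated reads with several matches is not given in the sources used here, and the part of pseudogenes in these values was not tested. Across 76 members the log2 fold change had a Pearson r of -0.056 and a Spearman rho of -0.19 with the length of the gene's span, and the points share libraries and depth.

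By promoter, 4 of 29 tested members with the ETS letters were higher and 3 lower (median log2 0.38), against 4 of 39 and 2 without (median 0.16). With the YY1 letters 0 of 12 were higher and 1, MRPL42, was lower (median -0.19), against 8 of 56 and 4 without (median 0.37). MRPL17, the member with the NRF1 letters, was among those that rose. Of all genes tested 11.4% were higher and 8.6% lower, and no difference by promoter letters was tested.

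Genes that act with the mitochondrial ribosome were set beside the members. All 13 mitochondrial mRNAs, its templates, were lower in the FHY1-M3 libraries (median log2 -3.92), among them MT-ND4 (-4.75, SE 0.05), MT-CO1 (-3.34, SE 0.04) and MT-ND5 (-3.51, SE 0.05). MT-CO1 had 1549 ± 161 CPM in the FHY1-M3 libraries and 15624 ± 847 CPM in the inputs (SD, n = 6 and 3). Of the 6 mitoribosomal proteins in the list with other or newer symbols, MRPL58 included, 1 rose (16.7%, against 11.4% of all genes tested). This was AURKAIP1, a small-subunit protein, with 104 to 144 CPM in the FHY1-M3 libraries against 23.1, 42.3 and 10.5 CPM in the inputs (log2 2.09, SE 0.31, adjusted p = 4.51e-06). DAP3 and PTCD3, also of the small subunit, were at -0.01 (SE 0.19 for each).

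Of 23 tested ribosome assembly factors 5 rose and 0 fell (21.7% and 0%, median log2 0.32), against 11.4% and 8.6% of all genes tested. The RNA helicase gene DHX30 had 417 ± 16.0 CPM in the FHY1-M3 libraries and 162 ± 32.9 CPM in the inputs (log2 1.34, SE 0.14), and the GTPase gene MTG2 (1.98, SE 0.37) and RCC1L (1.34, SE 0.33) also rose. Of 15 mitochondrial transcription, replication and RNA processing genes 7 rose and 0 fell (46.7% and 0%, median 0.71). Among those that rose were the DNA polymerase gene POLG (1.07, SE 0.19), the tRNA 3' processing gene ELAC2 (0.74, SE 0.18) and HSD17B10, a subunit of mitochondrial ribonuclease P (1.56, SE 0.39). Of 15 translation factors and related genes 1 rose and 1 fell (6.67% each, median 0.08). These were TACO1, an activator of COX1 translation (1.08, SE 0.33), and OXA1L, the inner-membrane insertase that receives new proteins (-0.79, SE 0.19).

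The cytosolic ribosomal protein genes and the nuclear-encoded oxidative phosphorylation genes are the nearest groups in kind. Of 77 cytosolic ribosomal protein genes 9 rose and 37 fell (11.7% and 48.1%, median log2 -0.24). Of 80 oxidative phosphorylation genes 4 rose and 10 fell (5% and 12.5%, median -0.17). Next to these are 10 and 5 of 76 members (13.2% and 6.58%, median 0.19) and 11.4% and 8.6% of all genes tested. The cytosolic ribosomal protein genes took 6.94% to 7.15% of FHY1-M3 counts and 7.39% to 7.9% of input counts, far more than the members. Smaller changes could therefore pass in them, and the shares called are not directly comparable. The difference between the groups was not tested.

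Between guides no member passed the threshold. For ACTB against non-target sgRNA 0 of 76 passed (background 0.25% of 12808 genes), with 4 at an unadjusted p under 0.05 and 0 in DESeq2, where the background was 0.589%. For ACTB against con sgRNA 0 passed (background 0.0312%), with 2 at an unadjusted p under 0.05 and 0 in DESeq2, where it was 0.039%. For con against non-target sgRNA 0 passed (background 0.172%), with 0 at an unadjusted p under 0.05 and 0 in DESeq2 (0.297%). The median log2 fold changes of the members were 0.01, 0.01 and -0.04 in that order, against 0.00 for all genes tested in each. For 52, 55 and 54 of the 76 members the 95% interval lay within a 2-fold change either way, and for the others the interval did not exclude a change of that size.

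The members with the smallest p, on CPM of the 6-library fit, show how far libraries of 1 guide can spread. MRPL48 had 30.9 and 42.2 CPM with the ACTB sgRNA, against 69.1 and 56.0 CPM under the non-target guide (log2 -0.78, SE 0.34, edgeR adjusted p = 0.58). MRPL1 had 24.4 and 27.5 CPM under the ACTB guide and 23.4 and 21.2 CPM under the con guide, against 16.9 and 6.22 CPM with the non-target sgRNA. Its log2 fold change was 1.15 (SE 0.52, edgeR adjusted p = 0.584) for ACTB and 0.94 (SE 0.52, adjusted p = 0.932) for con sgRNA. MRPL16, whose bacterial homologue lies near the A site, had 105 and 69.7 CPM with the ACTB sgRNA, against 62.0 and 53.9 CPM under the non-target guide (log2 0.59, SE 0.27, edgeR adjusted p = 0.584). These groups did not overlap in any of the genes, yet the differences did not pass.

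MRPS6, a homologue of a bacterial small-subunit protein, had 18.5 and 43.4 CPM with the ACTB sgRNA, against 8.94 and 12.2 CPM under the con guide (log2 1.54, SE 0.53, unadjusted p = 0.00579, edgeR adjusted p = 1). ACTB sgRNA replicate 2 stood high and replicate 1 lay nearer the con libraries. MRPS27 had 123 and 135 CPM with the ACTB sgRNA, against 86.3 and 99.9 CPM under the con guide (log2 0.47, SE 0.21, edgeR adjusted p = 1), and MRPL50 had 31.4 and 43.4 against 23.2 and 24.4 CPM (log2 0.65, SE 0.41, adjusted p = 1). MRPL12 had 32.9 and 25.2 CPM with the con sgRNA, against 7.07 and 23.2 CPM under the non-target guide (log2 0.96, SE 0.49, edgeR adjusted p = 0.932). Here non-target replicate 1 was the low library. MRPL45 had 111 and 80.2 CPM with the con sgRNA, against 62.0 and 75.3 CPM under the non-target guide (log2 0.48, SE 0.26, adjusted p = 0.932).

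**Figure D3:**
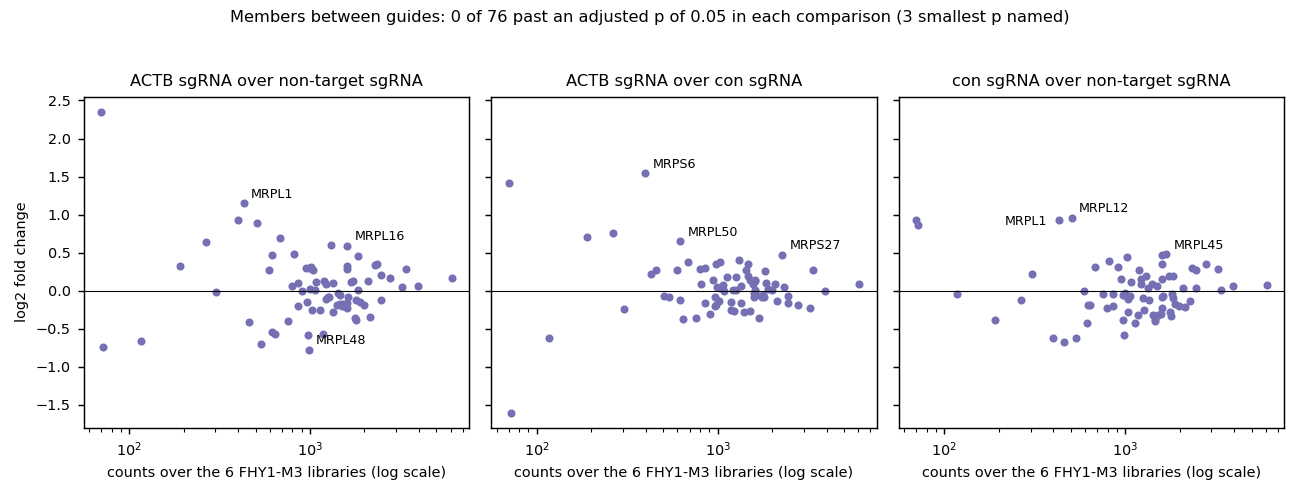
Log2 fold change of the 76 tested members between guides, against their counts summed over the 6 FHY1-M3 libraries (log axis). None is past the threshold, and the wider values belong to members with few counts.

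Set against input, each guide gave like numbers of calls. With the ACTB sgRNA 6 members were higher and 3 lower (background 7.05% and 3.97%), with the con sgRNA 6 and 4 (7.22% and 4.22%), and with the non-target sgRNA 8 and 2 (8.1% and 4.57%). These comparisons share the 3 inputs.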

How the data were processed

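Per the labels' protocols, TRIzol was used for extraction and the library kit keeps strand. The authors deposited whole-number read counts per gene symbol, 1 column per library, with no normalization visible in the values. Per the submitters' processing notes, the build was hg38, and STAR 2.7.10b, cutadapt 4.3 and deepTools are listed with no roles. What counted the reads, with which annotation and strand setting, is not stated in the sources used here.

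Counts went through quasi-likelihood F tests of edgeR 4.0.16 (R 4.3.3), two-sided, after filterByExpr and TMM scaling, with Benjamini-Hochberg adjustment over all genes tested and a threshold of 0.05. All 9 libraries were fitted for the comparison with input (mean of the 3 guide groups minus input), and the 6 sgRNA libraries for the guides. The SE is the fold change over the root of F. A check of the test used simulated counts in which 200 genes above a minimum mean count were changed, and its outcome is not given here. Genes with few counts were left unchanged there, so the check does not cover changes in them. Alternatives covered scaling, filters, DESeq2 1.42.0, halved counts, thinning, removal of mitochondrial mRNAs and histone genes, the libraries fitted, a replicate block and each library left out.

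Members and lists were chosen with earlier results of these data known. Named were up to 10 called members per direction, ranked by fold, whose groups did not overlap and whose mean reached 5 CPM, members listed for their role, the 3 smallest p per pair of guides and up to 3 genes per other list. MRPS22, the remaining member past the threshold, is among those listed for their role. Members matched RefSeq by symbol, MRPS36 as a synonym. Protein lengths were not analysed here. Replicates differed by more than sampling noise (chi-square per degree of freedom 1.81 to 5.12 on halved counts), and nothing says that they came from different cultures. The p-values therefore reflect only how far these libraries scatter, possibly for technical reasons.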

Additional observations from a re-analysis of the deposited data

Results flagged for a closer look

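A gap test (Dixon's, at its 95% critical value for 6 libraries) was applied to the 34 values named here over the 6 FHY1-M3 libraries, which pool 3 guides. It marked 4 of 34. The usual rate of about 1 in 20 by chance does not hold here, since some values were named for a small p between guides in these same libraries. MRPS6 and MRPL45 are among those. MRPL51 was highest in non-target sgRNA replicate 1 at 115.8 CPM, with the next library at 87.9 CPM. MRPS18A was highest in the same library at 43.79 CPM, with the next at 28.9 CPM. MRPL45 was highest in con sgRNA replicate 1 at 109.7 CPM, with the next at 79.2 CPM. MRPS6 was highest in ACTB sgRNA replicate 2 at 42.8 CPM, with the next at 19.8 CPM.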

How the results depend on the processing

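Of the 15 members called against input, 6 (MRPL17, MRPL21, MRPL23, MRPS26, MRPL30 and MRPL42) kept the call and direction under all 18 alternatives, and the other 9 lost it under at least 1. The number of members higher was 8 to 11 with a library left out and 6 after thinning. Over all genes tested it was 1186 to 1438 with a library left out (of 13119 to 13897) and 970 of 9861 after thinning. The number of members lower was 2 to 6 with a library left out, 9 in DESeq2, 3 with a replicate block and 6 after thinning. Over all genes tested it was 854 to 1032, 1568, 941 and 1149 in that order. The members' median log2 was 0.15 to 0.36 with a library left out, the highest without input replicate 2. Over all genes tested that median was 0.04 to 0.10, also highest without input replicate 2. With median-ratio size factors it was 0.12 for the members and -0.04 for all genes tested, and DESeq2 gave 0.12 and -0.04. The sign turned in members near 0: with library-size scaling MRPL10 was 0.0496, MRPL11 0.0150 and MRPL32 0.0505. With no low-count filter MRPL10 was 0.0100 and MRPL32 0.0159, and with a replicate block MRPL11 was 0.17 and MRPS30 -0.0881. With a library left out the ranges were -0.26 to 0.74 for MRPL10, -0.20 to 0.20 for MRPL11, -0.18 to 0.17 for MRPL32, -0.0332 to 0.64 for MRPS30 and -0.11 to 2.14 for MRPS36. The cause was not tested. Between guides 0 members passed under every alternative, the replicate block included. Same-numbered libraries had deviations that correlated between -0.0129 and 0.0186 over genes. With 2 libraries per guide the deviations mirror each other, and the input counts were low. These values therefore cannot decide whether same-numbered libraries were prepared together. Thinning leaves 70 members tested, and the inputs limit precision.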
